A study of Mus musculus with 6 samples.

Results

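The transcripts described here are 10 genes by which leukocytes hold on to the vessel wall, chosen by name from the 24972 gene rows of a heart RNA-seq table: Icam1, Icam2, Vcam1, Sele, Selp, Selplg, Itgam, Itgal, Itgb2 and Itga4. All 10 were found. The table holds 6 libraries, each prepared from the heart of an MX1gfp mouse, a reporter strain in which green fluorescent protein marks expression of the interferon-stimulated gene Mx1. All mice of both groups carried this reporter. Vehicle mice (3) received 100 microlitres of phosphate buffered saline into the peritoneum, and doxorubicin mice (3) received 25 mg per kg of doxorubicin, an anthracycline used against cancer that is toxic to the heart, in the same volume. Hearts were collected 48 hours later, digested with collagenase, and ventricular myocytes were settled by gravity before RNA was extracted. The labels call the cells primary cardiomyocytes and give no age or sex, and no sort removed other cells.

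Leukocytes leave the blood in steps. Selectins on activated endothelium (Sele, E-selectin, and Selp, P-selectin) catch sugars carried on Selplg, the ligand PSGL-1 of rolling leukocytes. Integrins then bind immunoglobulin-type receptors on the endothelium: Itgal and Itgb2 together form LFA-1, Itgam and Itgb2 together form Mac-1, and both bind Icam1, whereas Itga4 with Itgb1 forms VLA-4, which binds Vcam1. Endothelial cells at rest carry Icam2, while Icam1, Vcam1 and Sele are known to be induced by inflammatory cytokines through NF-kappaB, and Selp is stored in granules of endothelial cells and platelets.

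The promoters of Icam1, Selp, Sele and Itgam are shown first. In the libraries, 4 of the 5 endothelial genes were highest in doxorubicin replicate 2 and all 5 leukocyte genes in doxorubicin replicate 3. Promoter letters come from a reference genome and not from these libraries, and any link between them and these values was not tested. RefSeq windows of GRCm38.p6, running from 250 bases before to 50 bases after a gene's start, were matched for 5 of the 10 genes (Icam1, Sele, Selp, Itgam and Itga4). Each was searched on both strands for GGNNTTTCC, a sequence of the kind NF-kappaB binds, and for GAGGAA, which holds the core bound by ETS factors such as PU.1. The 250 bases before the start are printed 5′ to 3′ on the plus strand, the strand of these genes, with matches to either motif in capitals. For Sele the start used lies inside the RefSeq gene span.
Icam1, chr9:21015690-21015939: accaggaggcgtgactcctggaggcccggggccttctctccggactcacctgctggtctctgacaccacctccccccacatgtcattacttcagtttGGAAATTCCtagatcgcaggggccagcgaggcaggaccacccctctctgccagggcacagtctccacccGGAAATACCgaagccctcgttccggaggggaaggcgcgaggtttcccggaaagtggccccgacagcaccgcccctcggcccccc
Selp, chr1:164115014-164115263: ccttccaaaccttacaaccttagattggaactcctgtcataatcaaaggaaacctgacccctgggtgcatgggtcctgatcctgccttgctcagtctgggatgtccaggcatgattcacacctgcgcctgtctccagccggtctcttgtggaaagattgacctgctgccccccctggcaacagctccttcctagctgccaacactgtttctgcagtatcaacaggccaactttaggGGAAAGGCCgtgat
Sele, chr1:164047984-164048233: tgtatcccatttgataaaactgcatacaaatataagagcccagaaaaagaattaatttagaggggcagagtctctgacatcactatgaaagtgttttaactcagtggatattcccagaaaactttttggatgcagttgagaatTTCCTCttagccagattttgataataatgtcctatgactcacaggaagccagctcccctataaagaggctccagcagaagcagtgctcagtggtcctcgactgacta
Itgam, chr7:128062390-128062639: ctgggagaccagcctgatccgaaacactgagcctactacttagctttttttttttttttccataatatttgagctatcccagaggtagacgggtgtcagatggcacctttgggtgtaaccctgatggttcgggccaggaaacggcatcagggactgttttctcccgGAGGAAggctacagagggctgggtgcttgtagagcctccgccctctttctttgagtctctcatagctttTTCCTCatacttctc
The Icam1 window held 2 matches to GGNNTTTCC, reading GGAAATTCC and GGAAATACC on the printed strand, and the Selp window held 1, GGAAAGGCC. The Sele window held 0 of that motif and 1 match to GAGGAA. GGNNTTTCC is a narrow pattern, so 0 matches does not show that a window lacks sequences of the kind NF-kappaB binds. The Itgam window held 3 matches to GAGGAA, of which 2 are printed and 1 lies after the start. The Itga4 window held neither. No match to one motif overlapped a match to the other in these windows. Of all 32851 windows, 5.82% held GGNNTTTCC and 28.3% held GAGGAA. A match describes letters in these windows and is not evidence of binding.

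Values are the authors' deposited normalized counts, which summed to between 7217949 and 7500386 per vehicle library and between 5410780 and 6498373 per doxorubicin library. The read numbers behind them, judged by how low values are spaced, were about 7710000 to 11400000 for vehicle and 3670000 to 6170000 for doxorubicin, so depth and treatment cannot be told apart. Across genes, doxorubicin replicate 1 correlated with the vehicle libraries at Spearman's rho of 0.977 to 0.982, against 0.860 to 0.914 for replicates 2 and 3, a description only because genes are not independent replicates. Named adhesion and upstream genes whose call changed when replicate 1 was left out are given both ways, but genes named only as cell-type markers are not. Replicate 1 was singled out after its values were seen, as the doxorubicin library nearest to vehicle. Leaving it out therefore favours larger group differences, and the adjusted p values without it hold only under that choice. Cardiomyocyte markers were abundant in all 6 libraries. The sum of 8 of them ranged from 571219 to 672976 in vehicle and was 504672, 173171 and 145938 in doxorubicin replicates 1 to 3. Endothelial, leukocyte and other non-myocyte markers were also present in every library, and in bulk RNA more cells of a type and more RNA per cell cannot be told apart.

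All 10 adhesion genes had a positive log2 fold change after doxorubicin, and in 7 of them (Icam1, Icam2, Vcam1, Selplg, Itgam, Itgb2 and Itga4) every doxorubicin library lay above every vehicle library. Across the 12477 genes tested, 49.6% had a positive log2 fold change, 19.2% had groups that did not overlap with doxorubicin higher, and 22.6% had such groups with doxorubicin lower, a pattern that 0 of the 10 showed. The median log2 fold change was 1.08 for the 10 genes and -0.0046 for all genes tested. No adhesion gene passed the test: 0 of 10, and 0% of all genes in either direction, had an adjusted p under 0.05 (limma on log2(value + 1), Benjamini-Hochberg adjusted over all genes tested), the smallest over all genes being 0.0859. At an unadjusted p under 0.05 there were 6 of the 10, all higher, against 16.7% of all genes. Without doxorubicin replicate 1, limma called 7 of the 10 higher (Icam1, Icam2, Vcam1, Selp, Selplg, Itgam and Itgb2), and 0 lower, against 19.3% of all genes higher and 21.8% lower. Leaving out any other single library gave 0 of the 10. The filter, a 6-library mean of 10 or more, was passed by all 10, but Selp passed it only through its doxorubicin values.

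**Figure D1:**
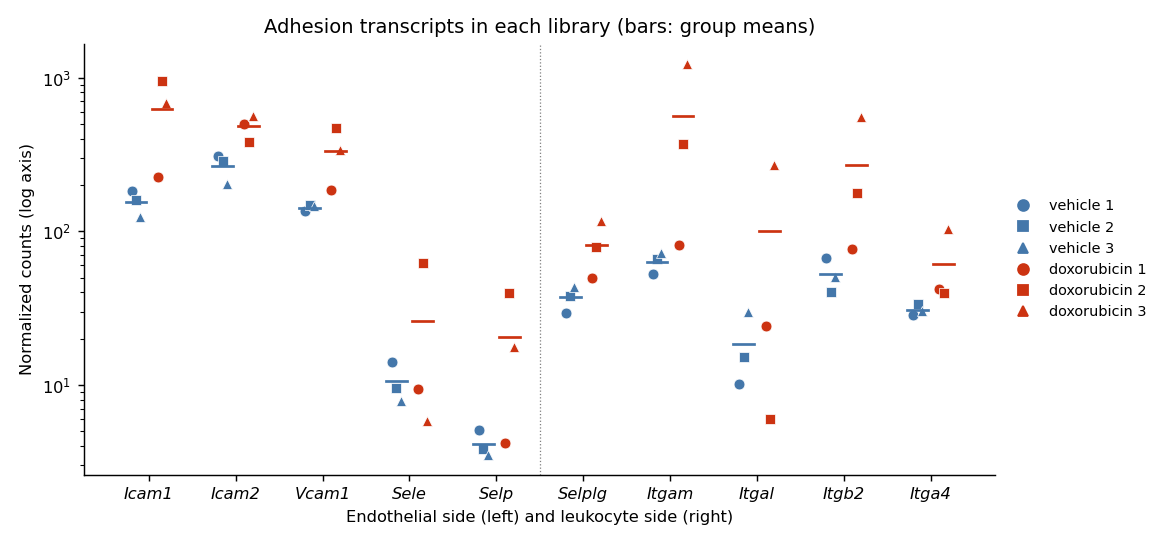
Normalized counts (log axis) of the 10 adhesion genes in each library; blue symbols are vehicle and red symbols doxorubicin, the shape gives the replicate and bars give group means. Icam1 and Vcam1 were highest in doxorubicin replicate 2, whereas Itgam, Itgal and Itgb2 were highest in doxorubicin replicate 3.

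Among the 5 endothelial genes Icam1 had the largest log2 fold change with all 6 libraries, whereas without doxorubicin replicate 1 that of Selp was larger. Icam1 (chromosome 9, 21015940 to 21028814, GRCm38) encodes the receptor to which the leukocyte integrins LFA-1 and Mac-1 bind. It measured 182, 161 and 125 in vehicle replicates 1 to 3, against 227, 956 and 684 in doxorubicin replicates 1 to 3. All 3 doxorubicin libraries lay above all vehicle libraries, with replicate 1 just above them and replicates 2 and 3 well above. The group means were 156 ± 29.0 and 622 ± 368 normalized counts (SD, n = 3 in each), a log2 fold change of 1.78 (standard error 0.49, adjusted p from limma 0.0859). Without doxorubicin replicate 1 it was 2.39 (adjusted p 0.000282), and without replicate 2 it was 1.35.

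Vcam1 (chromosome 3, 116110020 to 116129688), the receptor of the integrin VLA-4, showed the same order of doxorubicin libraries at a smaller size. It measured 135, 147 and 146 in vehicle hearts, against 186, 469 and 339 in doxorubicin replicates 1 to 3. The vehicle libraries lay close together and all doxorubicin libraries lay above them. The log2 fold change was 1.11 (standard error 0.31, adjusted p from limma 0.0859), from 143 ± 6.84 to 332 ± 142, and it was 1.48 without doxorubicin replicate 1 (adjusted p 0.00073).

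Icam2 (chromosome 11, 106377656 to 106388139), the receptor present on resting endothelium, behaved differently across the doxorubicin libraries. Its values were 311, 285 and 203 in vehicle and 499, 380 and 564 in doxorubicin replicates 1 to 3. Doxorubicin replicate 1, which was near vehicle for Icam1 and Vcam1, was the second highest library for Icam2, and replicate 2 was the lowest of the doxorubicin group. Icam2 differed by 0.86 on the log2 scale (standard error 0.22, adjusted p from limma 0.0859), from 266 ± 56.4 to 481 ± 93.3, and 0.82 without doxorubicin replicate 1 (adjusted p 0.0258).

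Per kilobase of the longest GENCODE M21 protein-coding transcript, Icam2 was the most abundant of these receptors in vehicle hearts, at 208 ± 44.0 normalized counts per kilobase, followed by Icam1 at 61.4 ± 11.4 and Vcam1 at 41.2 ± 1.97 (SD, n = 3). The vehicle values of Icam2, Icam1 and Vcam1 did not overlap. The ratio of Icam1 to Icam2 on this scale was 0.285 to 0.311 in vehicle hearts and 0.230, 1.27 and 0.613 in doxorubicin replicates 1 to 3. Icam1 therefore exceeded Icam2 only in doxorubicin replicate 2 among the 6 libraries, and in doxorubicin replicate 1 the ratio was below every vehicle library.

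The selectins were rare transcripts. Sele (chromosome 1, 164039614 to 164058487), the E-selectin of activated endothelium, measured 14.1, 9.62 and 7.92 in vehicle and 9.45, 62.5 and 5.85 in doxorubicin replicates 1 to 3. Only doxorubicin replicate 2 stood above the vehicle range, and replicate 3 was the lowest of all libraries. A log2 fold change of 0.56 (standard error 0.82, adjusted p from limma 0.643) was smaller than the replicate spread, and it turned to -0.41 without doxorubicin replicate 2.

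Selp (chromosome 1, 164115264 to 164150026), the P-selectin of endothelium and platelets, measured 5.10, 3.84 and 3.49 in vehicle and 4.21, 39.6 and 17.8 in doxorubicin replicates 1 to 3. Doxorubicin replicate 1 fell inside the vehicle range and replicates 2 and 3 lay above it. The vehicle values correspond to an estimated 4 to 8 reads per library, so the log2 fold change of 1.63 (standard error 0.79, adjusted p from limma 0.174) was imprecise. Selp overlaps the non-coding gene Gm16548, listed at 0 in all libraries, and Sele overlaps Gm51665, which was not analysed here. The Selp difference was 2.44 without doxorubicin replicate 1 (adjusted p 0.0112) and 0.96 without replicate 2.

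On the leukocyte side, Selplg (chromosome 5, 113817798 to 113832528), the selectin ligand PSGL-1, measured 29.6, 38.1 and 43.6 in vehicle and 49.6, 78.6 and 117 in doxorubicin replicates 1 to 3. The groups did not overlap, although doxorubicin replicate 1 exceeded vehicle replicate 3 by little. On the log2 scale the difference was 1.05 (standard error 0.33, adjusted p from limma 0.0869), and 1.36 without doxorubicin replicate 1 (adjusted p 0.00574).

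With all 6 libraries Itgam had the largest log2 fold change of the 10 genes. Itgam (chromosome 7, 128062640 to 128118491) encodes the alpha chain of Mac-1, known as CD11b, of macrophages, monocytes and neutrophils. Its values were 52.4, 66.3 and 72.0 in vehicle and 80.9, 372 and 1234 in doxorubicin replicates 1 to 3. Replicate 1 lay just above the vehicle range, whereas replicate 3 was 19.4 times the vehicle mean. The group means were 63.5 ± 10.1 and 562 ± 600 (SD, n = 3 in each), so the doxorubicin spread was as large as its mean. The log2 fold change was 2.39 (standard error 0.84, adjusted p from limma 0.0979), 3.41 without doxorubicin replicate 1 (adjusted p 0.000894) and 1.45 without replicate 3.

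Itgb2 (chromosome 10, 77530329 to 77565708), the beta chain that Mac-1 and LFA-1 share, showed the same order of doxorubicin libraries. It measured 67.5, 40.5 and 50.1 in vehicle and 76.9, 177 and 557 in doxorubicin replicates 1 to 3. The groups did not overlap, and the log2 fold change was 1.91 (standard error 0.63, adjusted p from limma 0.0897). It was 2.58 without doxorubicin replicate 1 (adjusted p 0.00308) and 1.16 without replicate 3.

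Itgal (chromosome 7, 127296139 to 127335137), the alpha chain of LFA-1 and most familiar from lymphocytes, did not follow Itgam, its neighbour on the same chromosome. Its values were 10.2, 15.3 and 29.7 in vehicle and 24.2, 6.02 and 271 in doxorubicin replicates 1 to 3. Doxorubicin replicate 3 stood far above all other libraries, while replicate 2, where Itgam was above every vehicle library, held the lowest Itgal value of the 6. Its difference of 1.04 on the log2 scale (standard error 1.19, adjusted p from limma 0.551) was smaller than the replicate spread and turned to -0.42 without doxorubicin replicate 3. Per kilobase, the ratio of Itgam to Itgal was 5.75, 4.82 and 2.70 in vehicle and 3.72, 68.9 and 5.07 in doxorubicin replicates 1 to 3. Doxorubicin replicate 2 was thus the library with a high Itgam to Itgal ratio, its Itgal resting on an estimated 5 reads, and the other doxorubicin libraries fell within the vehicle range of this ratio.

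Itga4 (chromosome 2, 79255426 to 79333114), the alpha chain of VLA-4, had the smallest log2 fold change of the leukocyte genes with all 6 libraries. It measured 28.5, 33.7 and 30.3 in vehicle and 41.9, 39.7 and 103 in doxorubicin replicates 1 to 3. All doxorubicin libraries lay above the vehicle libraries, replicate 3 furthest. On the log2 scale the difference was 0.83 (standard error 0.38, adjusted p from limma 0.156), and 0.39 without doxorubicin replicate 3. Itga4 shares 624 bases at its end with Cerkl, and whether strand was used in counting is not given in the sources used here; Cerkl itself averaged 2.35. Itgb1, its beta chain, is made by most cells of the heart and averaged 3775 ± 254 in vehicle and 3858 ± 291 in doxorubicin (log2 fold change 0.03, standard error 0.18, adjusted p from limma 0.915). Itgb7, the other beta chain of Itga4, averaged 8.20 ± 4.01 and 10.95 ± 7.68 and was under the filter, as was Itgax, a further partner of Itgb2, at 3.08 ± 1.02 and 9.57 ± 7.32.

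Among the leukocyte integrins and their ligand, the levels per kilobase in vehicle hearts were 20.0 ± 3.80 for Selplg, 17.7 ± 4.60 for Itgb2, 13.6 ± 2.16 for Itgam, 3.52 ± 1.94 for Itgal and 3.16 ± 0.274 for Itga4 (SD, n = 3). Neighbours in this order overlapped, except that every Itgam value exceeded every Itgal value. In doxorubicin replicate 3 the order was Itgam at 264, Itgb2 at 188, Selplg at 63.0, Itgal at 52.0 and Itga4 at 10.5. The ratio of Itgam to Itgb2 was 0.492 to 1.04 in vehicle and 0.667, 1.34 and 1.40 in doxorubicin replicates 1 to 3.

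**Figure D2:**
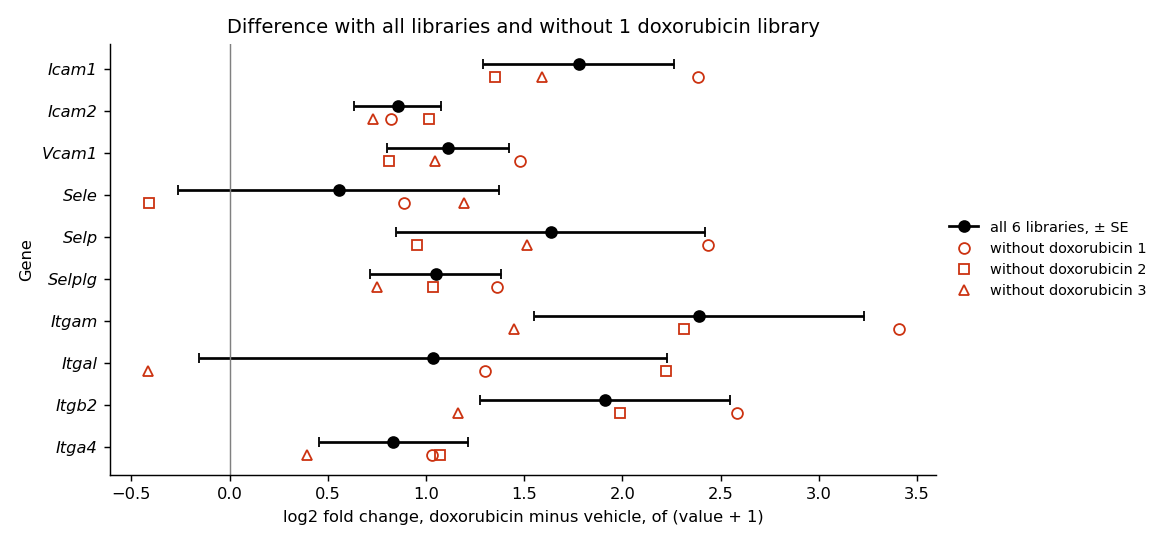
Log2 fold change of each adhesion gene with its SE (black, all 6 libraries) and after leaving out 1 doxorubicin library (open red symbols). Sele turned from 0.56 to -0.41 without replicate 2 and Itgal from 1.04 to -0.42 without replicate 3, and the other 8 genes kept a positive value.

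The libraries also differ in Xist and Y-linked transcripts, which place vehicle replicate 3 with doxorubicin replicates 1 and 3 and the others with doxorubicin replicate 2. With a single doxorubicin or vehicle library in a class, the differences within classes are values without a test. Within the class with Y-linked transcripts the log2 difference was 2.48 for Icam1, 0.35 for Icam2, 1.73 for Vcam1, 2.33 for Sele, 2.90 for Selp, 2.64 for Itgam and -0.94 for Itgal. Within the class with Xist the same genes differed by 1.65, 1.38, 0.78, -0.08, 1.14, 2.12 and 1.43. Sele and Itgal thus took opposite signs in the classes. Selplg, Itgb2 and Itga4 were higher after doxorubicin in both, at 1.20, 1.74 and 0.35 with Y-linked transcripts and 0.79, 2.03 and 1.09 with Xist.

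Markers of most cell types that carry these genes were also higher after doxorubicin. The sum of 12 endothelial markers was 16487 to 21241 in vehicle and 27192, 30000 and 37326 in doxorubicin replicates 1 to 3. In 9 of the 12 doxorubicin was higher without overlap, against 19.2% of all genes. Cdh5, Emcn and Kdr overlapped, and Kdr was 3448 to 4340 in vehicle and 5139, 2159 and 3401 in doxorubicin replicates 1 to 3 (log2 fold change -0.26). The sum of 10 pan-leukocyte markers, among them Ptprc (CD45), was 538 to 579 in vehicle and 894, 1327 and 2941 in doxorubicin. All 10 were higher after doxorubicin without overlap, against the same 19.2% of all genes. Macrophage markers (11, led by Lyz2) summed to 2676 to 2881 in vehicle and to 4355, 7612 and 15871 in doxorubicin, where Adgre1 reached 1818 in replicate 3 against 146 and 173 in replicates 1 and 2. Neutrophil markers (8) summed to 19.4 to 37.0 in vehicle and to 78.2, 680 and 520 in doxorubicin, with S100a8 at 14.5, 130 and 107, and 2 of them (Retnlg and Ly6g) were at 0 in all vehicle libraries. Lymphocyte markers (12) stayed low, at 32.3 to 61.4 in vehicle and 129, 21.6 and 29.6 in doxorubicin replicates 1 to 3. Of the T cell markers, Cd3e was at 0 in vehicle replicate 1 and in doxorubicin replicate 3, which held Cd3g at 5.90, Cd3d at 4.46 and Cd4 at 8.90. Platelet markers (7) summed to 63.6 to 75.3 in vehicle and to 141, 147 and 329 in doxorubicin, mostly from Pf4, and Gp5 was at 0 in all vehicle libraries. Summed monocyte (6), fibroblast (7) and mural (6) markers reached at most 2.16, 3.34 and 1.42 times their vehicle means in a doxorubicin library. The monocyte sum was mostly Fn1, at 617 ± 94.4 in vehicle and 987 ± 294 in doxorubicin. Rarer members differed: Chil3 averaged 0.296 ± 0.513 and 35.2 ± 30.3, Plac8 1.20 ± 1.34 and 10.0 ± 2.38, and Ccr2 18.8 ± 2.82 and 24.4 ± 4.22. In doxorubicin replicate 2 the fibroblast sum of 22707 was mostly Dcn, at 18072, while Col3a1 was 740 against 1412 to 2268 in vehicle.

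**Figure D3:**
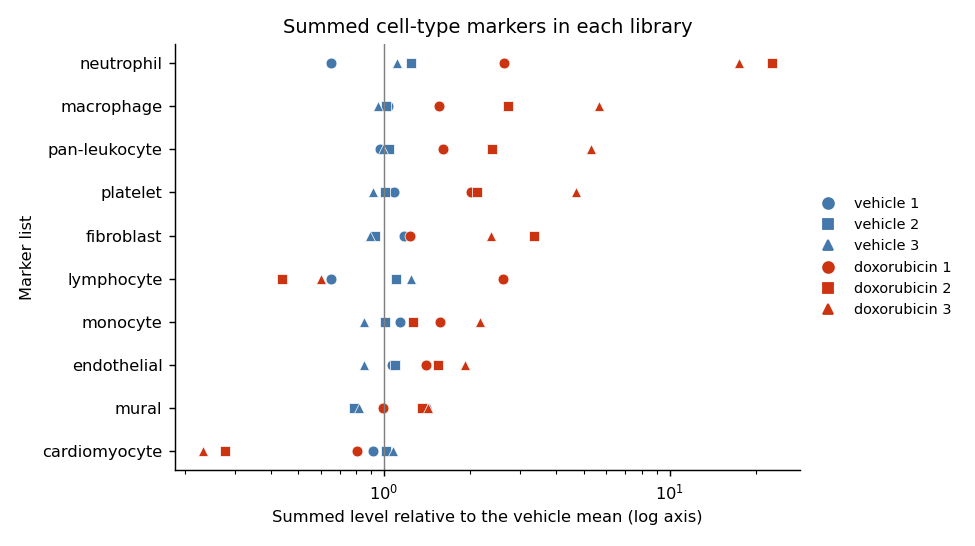
Summed level of each marker list divided by its vehicle mean (log axis), with vehicle in blue and doxorubicin in red and the replicate by shape. Neutrophil markers reached 22.8 times the vehicle mean in doxorubicin replicate 2, pan-leukocyte markers 5.30 times in replicate 3 and endothelial markers 1.92 times in replicate 3.

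Each gene was then set against summed markers, endothelial or pan-leukocyte, as the log2 of (value + 1) over (sum + 1), a description without a test. Bulk libraries do not show which cells held each transcript, so this assignment was not tested. The fibroblast marker sum was 8364, 22707 and 16161 in doxorubicin replicates 1 to 3, the same order as Icam1 and Vcam1. Dcn alone was 3113, 18072 and 11326. Pdgfra, Tcf21 and Col1a2 also had this order, whereas Col1a1, Col3a1 and Lum did not. Relative to endothelial markers, Icam1 was -6.82, -7.04 and -7.04 in vehicle and -6.90, -4.97 and -5.77 in doxorubicin replicates 1 to 3. Doxorubicin replicate 1 lay inside the vehicle range, and replicates 2 and 3 lay above it. The mean difference on this scale was 1.09 for Icam1, 0.94 for Selp, 0.42 for Vcam1, 0.17 for Icam2 and -0.13 for Sele. When each library was left out in turn, it ran from 0.63 to 1.60 for Icam1, 0.24 to 1.65 for Selp, 0.09 to 0.69 for Vcam1, 0.03 to 0.30 for Icam2 and -1.13 to 0.63 for Sele. The lowest values of Icam1, Selp, Vcam1 and Sele came without doxorubicin replicate 2, and the highest of Icam1, Selp and Vcam1 without doxorubicin replicate 1. For Icam2 the lowest came without doxorubicin replicate 1, and for Sele the highest came without doxorubicin replicate 3. The 5 endothelial genes all had overlapping groups on this scale, where 2.21% of all genes were higher and 60.8% lower without overlap.

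Relative to pan-leukocyte markers, Itgam was -3.34, -3.11 and -2.91 in vehicle and -3.45, -1.83 and -1.25 in doxorubicin replicates 1 to 3, with replicate 1 below the vehicle range and the others above it. The mean difference was 0.94 for Itgam, 0.46 for Itgb2, -0.40 for Selplg, -0.41 for Itgal and -0.62 for Itga4. Leaving out each library in turn gave 0.48 to 1.58 for Itgam, 0.19 to 0.75 for Itgb2, -0.53 to -0.22 for Selplg, -1.39 to 0.68 for Itgal and -0.80 to -0.48 for Itga4. Itgal was positive without doxorubicin replicate 2, and its lowest value, like those of Itgam and Itgb2, came without replicate 3. The highest values of Itgam and Itgb2 came without doxorubicin replicate 1. Itga4 was the only one of these 5 whose groups did not overlap, and it was lower, as were 80.0% of all genes on this scale, while 0.273% were higher. The part of cell composition in any of these differences was not tested.

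**Figure D4:**
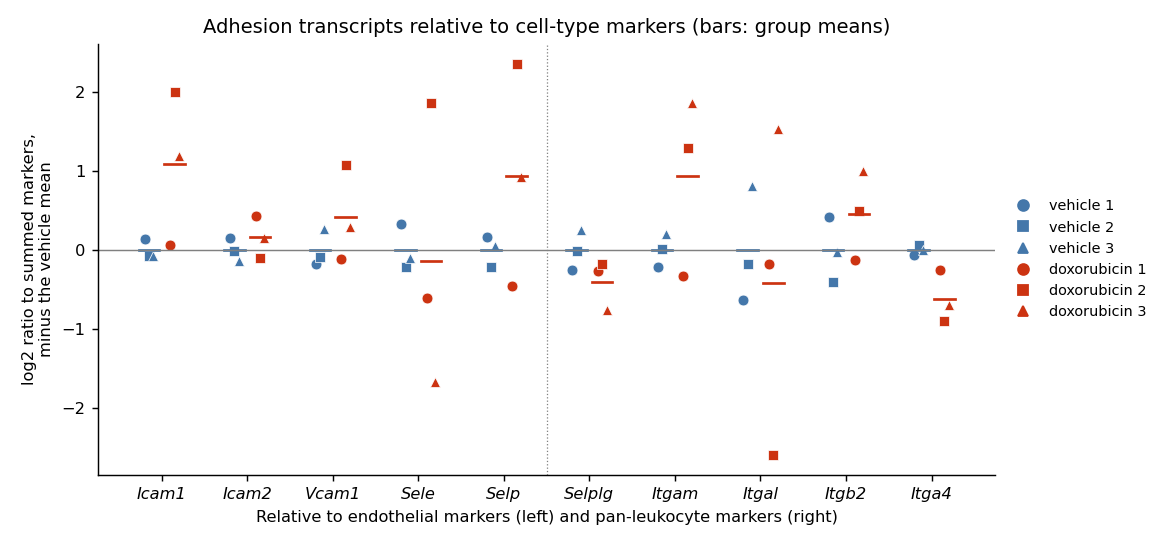
Log2 ratio of each adhesion gene to summed endothelial or pan-leukocyte markers, minus the vehicle mean, per library. Blue is vehicle, red is doxorubicin and bars are group means. Icam1 in doxorubicin replicates 2 and 3 and Itgam in the same replicates lay above the vehicle libraries, while Itga4 was below them in all 3 doxorubicin libraries.

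The wider adhesion cascade was described with 49 further genes in 4 lists, of which 48 were in the table and 38 were tested. Some of these 38 passed the filter only through their doxorubicin values. Of the 38, 32 had a positive log2 fold change, against 49.6% of all genes, and 6 a negative one. The median was 0.42, against -0.0046 for all genes. Groups were without overlap in 13 of these 38 with doxorubicin higher and 2 with doxorubicin lower, against 19.2% and 22.6% of all genes. limma called 0, with 12 higher and 3 lower at an unadjusted p under 0.05, against 16.7% and 19.3% of all genes. Without doxorubicin replicate 1 limma called 18 higher and 3 lower, against 19.3% and 21.8% of all genes.

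Genes that switch integrins on had the highest median of the 4 lists, 1.05 over 11 tested. All 11 were positive, against 49.6% of all genes, and 6 were higher without overlap, against 19.2% of all genes. The pan-leukocyte markers had a median of 1.54, and the part of cell composition was not tested. Apbb1ip, the adaptor RIAM that brings talin to integrins, averaged 22.7 ± 4.31 in vehicle and 99.0 ± 51.3 in doxorubicin, a log2 fold change of 1.91 (standard error 0.46, adjusted p from limma 0.0859) that was 2.47 without doxorubicin replicate 1 (adjusted p 0.00038). In the selectin branch the median was 0.55 over 10 tested genes. St3gal4, a sialyltransferase that helps to build selectin ligands, had its largest negative difference at -0.51 (adjusted p from limma 0.135), which was -0.73 without doxorubicin replicate 1 (adjusted p 0.00726).

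Among junctional and immunoglobulin-type genes the median was 0.36 over 10 tested genes. Esam, an endothelial junction protein that is also in the endothelial marker list, averaged 802 ± 112 in vehicle and 1750 ± 455 in doxorubicin (log2 fold change 1.10, adjusted p from limma 0.0859), and Cd99l2 averaged 903 ± 131 and 589 ± 133 (-0.63, adjusted p 0.0880). Without doxorubicin replicate 1 the differences of Esam and Cd99l2 were 1.33 and -0.80 (adjusted p 0.000832 and 0.00757). Integrin partners had a median of 0.20 over 7 tested genes. Itgb3, a beta chain of platelets and activated endothelium, averaged 19.5 ± 3.31 and 89.6 ± 78.5 (log2 fold change 1.75, adjusted p from limma 0.101), and Itga9 averaged 639 ± 69.0 and 367 ± 193 (-0.92, adjusted p 0.0984). Without doxorubicin replicate 1 those of Itgb3 and Itga9 were 2.43 and -1.32 (adjusted p 0.00286 and 0.000573).

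Of 15 cytokine and NF-kappaB genes upstream of endothelial adhesion, 13 were tested. A positive log2 fold change was found in 12 of those, against 49.6% of all genes, with a median of 0.98. One of the 12, Il1a, passed the filter only through doxorubicin replicate 3. It measured 0.645, 1.93 and 0.892 in vehicle and 1.05, 1.20 and 409 in doxorubicin replicates 1 to 3. Over the 13 genes, groups did not overlap in 8 with doxorubicin higher and 1 with doxorubicin lower, against 19.2% and 22.6% of all genes. limma called 0 of the 13 with all 6 libraries, and 9 higher and 1 lower without doxorubicin replicate 1, against 19.3% and 21.8% of all genes. Il1b, which induces Icam1, Vcam1 and Sele in endothelium, measured 23.0, 12.5 and 9.70 in vehicle and 33.5, 30.1 and 979 in doxorubicin replicates 1 to 3. On the log2 scale its difference of 2.75 (standard error 1.23, adjusted p from limma 0.151) was 1.11 without doxorubicin replicate 3 and 3.53 without replicate 1 (adjusted p 0.0454). Doxorubicin replicate 3 held the highest Il1b, and replicate 2 the highest Icam1, Vcam1, Sele and Selp. Each of these is a single library, and whether any upstream gene drove the adhesion genes was not tested. Ifngr2, a chain of the interferon gamma receptor, averaged 1808 ± 88.9 and 735 ± 496, a log2 fold change of -1.51 (adjusted p from limma 0.0859) that was -2.02 without doxorubicin replicate 1 (adjusted p 0.000312).

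**Figure D5:**
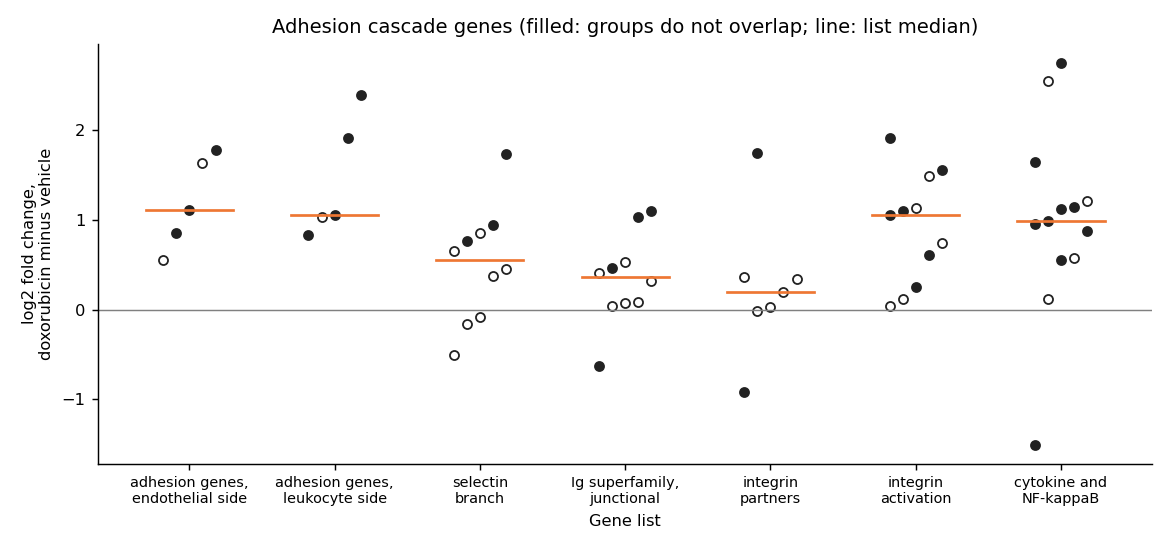
Log2 fold change of each tested gene in the adhesion lists and the cytokine and NF-kappaB list; filled points have groups that do not overlap and the orange line is the list median. The leukocyte-side and endothelial-side adhesion genes had medians of 1.05 and 1.11, and integrin partners 0.20.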

How the data were processed

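RNA from 6 hearts was sequenced, 3 per group, and each library's title gave its group and replicate number. Per the submitters' processing notes, STAR 2.6.1a and Salmon were used with mm10; for the role of Salmon, strand use and normalization method, the sources used here say nothing. Values the authors deposited are a non-negative signal, normalized counts for each gene. They are not whole: 81.1% to 92.5% of a library's low values (below 8.5 estimated reads) were within 0.1 read of a whole number, so no count test was used.

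Values were used as deposited (24972 rows, 2 of them repeated names). Genes whose 6-library mean reached 10 were tested, as log2(value + 1) with a pseudocount of 1, with limma 3.58.1 in R 4.3.3 (trend, two-sided, Benjamini-Hochberg, threshold 0.05). The fit was tested on simulated data with the same spread for all genes and libraries, so that test does not cover the unequal doxorubicin libraries here. Log2 fold changes are on the log2(value + 1) scale and understate changes of low genes. An exact permutation test of 3 against 3 libraries cannot give p under 0.1 and was not used. Nothing in the labels beyond separate titles says how independent the 3 libraries of a group are. Gene positions and promoters are from RefSeq (GRCm38.p6), transcript lengths from GENCODE M21. The genes and lists were chosen with earlier results of these data known, and beyond the 10 adhesion genes and fixed partners and markers the text names each list's largest positive and largest negative difference, and the highest or defining member of marker lists. A further gene that this rule names is not reported here. Other genes or libraries were named after their values were seen (Gp5, Retnlg, Ly6g, Cerkl, Chil3, Plac8, Ccr2, Col1a1, Col1a2, Col3a1, Lum, Pdgfra, Tcf21, Kdr, Emcn, Il1a). Figures were drawn with matplotlib 3.10.9.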

Additional observations from a re-analysis of the deposited data

How the results depend on the processing

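At the threshold of 0.05 limma called 0 genes and 0 of the 10 adhesion genes with pseudocounts of 0.5 and 8, without a filter, with a minimum mean of 50 (which drops Sele, Selp and Itga4), with equal totals, quantile normalization, no trend, robust moderation and the Xist class as a covariate. Library weights gave 4272 of 12477 genes (1954 higher and 2318 lower) and 7 adhesion genes, all higher. A threshold of 0.10 gave 3022 genes (11.1% of all genes higher) and 6 adhesion genes, all higher. Leaving out each library gave 0 to 5127 genes and 0 to 7 adhesion genes. Both highest values came without doxorubicin replicate 1, whose weight was 0.277. There 19.3% of all genes were called higher and 21.8% lower, and the 7 adhesion genes were all higher. With equal totals the all-gene median was 0.29. The median of the 10 log2 fold changes was 1.01 to 1.42 under those of these settings that tested all 10. Over the libraries left out, Sele ran from -0.41 (without doxorubicin replicate 2) to 1.19 and Itgal from -0.42 (without doxorubicin replicate 3) to 2.22; these are the 2 reversals among 167 values of single genes. With the median of the markers in place of their sum, the median marker ratio went from 0.29 to -0.0088 and that of Icam2 from 0.17 to -0.14; the cause was not tested. Selp and Sele rest on as few as 4 estimated reads in a library, and Itgal on 5.

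The replicate block gave 0 genes and 0 adhesion genes, with a smallest adjusted p of 0.115. The deviations of same-numbered libraries from their group means correlated at -0.128, 0.0331 and -0.0928, and those of other pairs at -0.183 to 0.223. With 3 libraries per group this cannot decide whether the numbers pair libraries, and the labels do not say.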
